A study of Mus musculus with 4 samples.

Results

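Cholesterol and fatty acid synthesis was followed through 29 genes, chosen by name from the 25071 gene symbols counted in the 4 libraries. Earlier results of these data were known when they were chosen. The sterol branch has 21 genes, which cover the route through mevalonate and squalene to cholesterol with its regulators Srebf2 and Insig1 and the sterol carrier Stard4. The fatty acid branch has 8 genes, which make, lengthen, desaturate and activate fatty acids, with their regulator Srebf1. All 29 had counts in each library. Levels are given as CPM, counts per 1000000 UMIs of the cells summed, where a UMI (unique molecular identifier) marks one captured transcript.

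Vaginal epithelium of C57BL/6 mice was dissociated and profiled by Drop-seq, in which each cell shares a droplet with a barcoded bead that captures its polyadenylated RNA. The OVX group consists of mice whose ovaries were removed by surgery, and the WT group of ovary-intact mice, with 2 libraries per group. Each library held cells pooled from 5 mice, and no source used here gives the time since surgery, the cycle stage of the WT mice or the age of any mouse. It is unclear whether the paired libraries of a group came from separate pools, so p-values between groups rest on the spread of these libraries alone, and that spread may be technical.

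Cells build cholesterol from acetyl-CoA through HMG-CoA, mevalonate, isoprenoid diphosphates, squalene and lanosterol. When membranes of the endoplasmic reticulum lack sterol, the factor encoded by Srebf2 is released and switches on most genes of the route, while Insig1 holds it back when sterol is plentiful. Srebf1 encodes the related factor that acts mainly on fatty acid synthesis. Stratified epithelia such as vagina and skin use cholesterol, fatty acids and ceramides in their upper layers. The ovaries are the main source of oestrogen, which drives division and stratification of vaginal epithelium.

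Barcodes with 200 or more genes detected, and a mitochondrial share of UMIs no higher than 20%, are called kept cells. They numbered 1573 of 3000 and 1907 of 2000 deposited barcodes in OVX libraries 1 and 2, and 2979 of 3000 and 1987 of 2000 in the WT libraries. The filter thus removed far more of OVX library 1 than of any other. Kept cells held 798916 and 1636888 UMIs in OVX and 5830417 and 1930040 in WT. Their median depth was 435 and 738 UMIs in OVX and 1597 and 799 UMIs in WT. Median mitochondrial shares per cell were 8.97% and 9.69% in OVX against 4% and 3.85% in WT, and Malat1, a nuclear RNA, took 2.5% and 1.81% of UMIs in OVX against 0.336% and 0.465% in WT. Between 2 and 15 barcodes were shared by any pair of libraries. The 11 basal epithelial markers summed to 8547 and 9088 CPM in OVX and 43842 and 25590 CPM in WT, whereas endothelial, smooth muscle, T or NK and adipocyte markers stayed at or below 8.55 CPM per list in every library. Myeloid markers summed to 904 and 514 CPM in OVX and 128 and 136 CPM in WT, and fibroblast markers to 289 and 268 CPM in OVX and 215 and 216 CPM in WT. The fibroblast sum does not show how single markers moved. Of 6 tested, 5 lay higher in both OVX libraries than in both WT libraries, and 1 lay lower. Over all genes these shares were 29.1% and 21.2%. The median log2 fold change of the 6 was 3.75, OVX over WT, and the lowest was -1.53.

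Layers were taken from marker genes that are no members of either branch, in cells thinned to 300 UMIs each. The basal gate held 50.2 ± 2.03% of thinned cells in OVX and 49.1 ± 8.49% in WT (SD, n = 2 libraries each; exact permutation p = 1). The suprabasal gate held 0.101 ± 0.0689% in OVX and 21.4 ± 2.76% in WT. The luminal gate, set by 14 simple-epithelium genes with Krt7, Krt8 and Krt18 among them, held 8.6 ± 0.353% in OVX and 0.847 ± 0.131% in WT. The few WT cells in it had 0 Krt8 UMIs in both libraries and 2 and 1 of Krt18. They had 77 and 34 UMIs of Krt7 and 735 and 234 of the basal marker Krt14, so their luminal identity is not shown. Cells with at least 3 UMIs of the division markers made up 1.17 ± 0.276% in OVX and 15.9 ± 4.56% in WT. For these last 3 shares the two-sided exact permutation p was 0.333, the smallest that 2 against 2 libraries allow. Among all thinned OVX cells, 73 and 97 held exactly 2 luminal UMIs, the least that the luminal gate takes. Exactly 2 basal UMIs, the least for the basal gate, were held by 304 and 406 thinned cells in OVX and 36 and 105 in WT. Both gates thus have a soft edge in OVX. No gate took 39.5 ± 1.81% of thinned cells in OVX and 28.3 ± 5.83% in WT, beside the myeloid and fibroblast cells set aside. Cells over several thresholds, doublets included, were not removed.

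The promoters of 17 sterol and 7 fatty acid genes had an entry in the RefSeq table for GRCm38.p6, each a window of 300 bases from 250 before to 50 after a transcript start. 3 motifs known from this pathway were searched on both strands: TCACNCCAC for the sterol regulatory element, CCAAT for the box bound by NF-Y, and GGGCGG for the GC box bound by Sp1. CCAAT was found in 80% of the windows of sterol genes, in 60% of those of fatty acid genes and in 37.4% of all 32851 windows. GGGCGG was found in 85% of sterol, 60% of fatty acid and 35.7% of all windows. TCACNCCAC was found in 5% of sterol windows, in 0 of 10 fatty acid windows and in 1.24% of all windows. The gene with the match was Hmgcs1, where it began 137 bases before the start. Only exact matches to these letters were counted, so an element spelled otherwise would be missed. Percentages are per window, and some genes had more than 1 window. The 250 bases before the start follow for Mvk and Nsdhl, which fell in OVX, for Hmgcs1, and for Insig1, which rose most in the suprabasal gate. Capitals mark CCAAT, printed as its reverse complement where the match is on the other strand, and in Hmgcs1 also the sterol element TCACCCCAC. None of the marked motifs overlap.
Mvk, chr5:114444019-114444268, plus strand: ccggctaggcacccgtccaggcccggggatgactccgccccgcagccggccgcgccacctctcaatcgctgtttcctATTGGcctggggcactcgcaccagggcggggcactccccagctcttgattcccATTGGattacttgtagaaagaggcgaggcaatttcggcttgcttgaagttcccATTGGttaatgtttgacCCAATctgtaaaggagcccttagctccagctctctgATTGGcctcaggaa
Nsdhl, chrX:72918271-72918520, plus strand: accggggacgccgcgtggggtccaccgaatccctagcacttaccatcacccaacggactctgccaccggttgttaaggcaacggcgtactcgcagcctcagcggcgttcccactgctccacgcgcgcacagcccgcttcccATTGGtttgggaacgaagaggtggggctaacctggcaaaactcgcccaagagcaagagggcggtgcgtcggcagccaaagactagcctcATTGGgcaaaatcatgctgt
Hmgcs1, chr13:119690101-119690350, plus strand: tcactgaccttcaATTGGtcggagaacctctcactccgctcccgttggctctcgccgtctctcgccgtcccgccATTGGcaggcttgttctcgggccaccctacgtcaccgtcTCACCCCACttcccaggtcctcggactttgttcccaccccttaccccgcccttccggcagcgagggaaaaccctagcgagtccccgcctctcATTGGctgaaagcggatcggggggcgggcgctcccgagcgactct
Insig1, chr5:28071162-28071411, plus strand: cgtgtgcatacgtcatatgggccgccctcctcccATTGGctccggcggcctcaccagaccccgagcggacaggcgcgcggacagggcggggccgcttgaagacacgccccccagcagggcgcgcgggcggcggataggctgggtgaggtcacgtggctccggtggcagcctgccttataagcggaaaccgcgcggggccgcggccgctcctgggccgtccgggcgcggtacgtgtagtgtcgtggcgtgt
Mvk held 5 CCAAT matches in this stretch, Hmgcs1 3, Nsdhl 2 and Insig1 1. Entries for Fdps, Fdft1, Sqle, Stard4 and Scd2 were not used here.

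In kept cells the sterol branch was lower in OVX. Its 21 genes summed to 402 and 365 CPM in the OVX libraries and 849 and 984 CPM in the WT libraries, or 383 ± 26.2 CPM in OVX and 916 ± 95.6 CPM in WT (SD, n = 2), an OVX level 0.418 times the WT level. Mvk, Fdps, Sqle and Nsdhl fell, and 0 sterol genes rose. In bulk sums like these, fewer cells of a kind and less RNA per cell cannot be told apart. The fatty acid branch summed to 448 and 527 CPM in OVX and 655 and 442 CPM in WT, and its groups overlapped.

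Of the 20 sterol genes tested, 4 passed the threshold downward, an adjusted p under 0.05 by edgeR's quasi-likelihood test on library sums; 290 of all 11495 tested genes did so, or 2.52%, and 2.58% passed upward. At an unadjusted p under 0.05, 12 sterol genes were lower, against 10% of all genes. Both OVX libraries lay below both WT libraries for 14 sterol genes, against 21.2% of all genes, and above them for 1, Sc5d, against 29.1%. The log2 fold change was below 0 for 19 of the 20, with a median of -1.57; over all genes it was below 0 for 51.4%, with a median of -0.03. Tm7sf2, a sterol reductase with 1 and 5 UMIs in OVX and 25 and 3 in WT, was too low to be tested. A sterol gene that is abundant only in WT enters the test through WT, so the counts over tested genes lean towards lower values in OVX. The list was also chosen with earlier results of these data known. Its counts beside those of all genes, here and below, are therefore a description and no independent test.

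The early steps make mevalonate. Hmgcs1, HMG-CoA synthase, stood at 72.6 and 66.6 CPM in OVX and 138 and 149 CPM in WT, without overlap (log2 fold change -1.19 ± 0.38 SE, edgeR adjusted p = 0.128). Acat2, the cytosolic thiolase that supplies acetoacetyl-CoA, averaged 11.8 ± 6.32 CPM in OVX and 24.8 ± 11.8 CPM in WT and did not pass.

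The steps that turn mevalonate into isoprenoid units held 2 of the 4 genes that fell. Mvk, mevalonate kinase, stood at 3.76 and 7.33 CPM in OVX and 50.8 and 28 CPM in WT, and fell by 2.87 ± 0.57 on the log2 scale (SE, edgeR adjusted p = 0.031). Pmvk, the next kinase, stood at 12.5 and 13.4 CPM in OVX and 35.5 and 42 CPM in WT (log2 fold change -1.69 ± 0.42, edgeR adjusted p = 0.0648). Both genes were lower in each OVX library than in either WT library, but Pmvk missed the threshold. Mvd, the decarboxylase, had 2 and 1 UMIs in OVX and 63 and 14 in WT; from pooled counts WT was 8.06 times OVX, with a 95% counting interval of 2.66 to 39.9. Idi1, the isomerase, overlapped between groups, at 2.5 and 6.72 CPM in OVX and 3.26 and 11.9 CPM in WT. Fdps, farnesyl diphosphate synthase, stood at 17.5 and 11 CPM in OVX and 41.7 and 122 CPM in WT and fell by 2.68 ± 0.62 (edgeR adjusted p = 0.0493). The Fdps count is uncertain, since 74.1% of the 50-base words in the last 500 bases of its transcript also occur in other, predicted genes; for the other 28 members this share was 0.

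Squalene is made and closed into the sterol ring by Fdft1, Sqle and Lss. Sqle, squalene epoxidase and a second control point of the route, stood at 12.5 and 14.7 CPM in OVX and 49.2 and 90.2 CPM in WT and fell by 2.46 ± 0.48 (edgeR adjusted p = 0.0304). Fdft1, squalene synthase, stood at 12.5 and 11.6 CPM in OVX and 32.4 and 54.9 CPM in WT (log2 fold change -1.98 ± 0.47, edgeR adjusted p = 0.0546). Lss, lanosterol synthase, stood at 16.3 and 12.2 CPM in OVX and 25.4 and 23.3 CPM in WT (adjusted p = 0.279 by edgeR). All 3 were lower in both OVX libraries, and only Sqle passed. Exons of Fdft1 overlap Ctsb on the other strand, and no source used here says whether counting used strand.

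Lanosterol is trimmed to cholesterol by the remaining enzymes. Nsdhl, a dehydrogenase that removes methyl groups from the ring, stood at 8.76 and 6.72 CPM in OVX and 32.9 and 28 CPM in WT and fell by 2.14 ± 0.46 (edgeR adjusted p = 0.0412). Its partner Msmo1 stood at 37.6 and 26.3 CPM in OVX and 85.2 and 87 CPM in WT (log2 fold change -1.59 ± 0.40, edgeR adjusted p = 0.0648). Cyp51, lanosterol demethylase, stood at 28.8 and 45.2 CPM in OVX and 117 and 85 CPM in WT (log2 fold change -1.56 ± 0.44, edgeR adjusted p = 0.0921); its exons overlap Akap9 on the other strand. These levels did not overlap between groups. Hsd17b7, a ketosteroid reductase of the same steps, stood at 13.8 and 11 CPM in OVX and 53.9 and 19.2 CPM in WT, with wide spread in WT (edgeR adjusted p = 0.148). The last enzymes showed smaller differences. Ebp, Dhcr7 and Sc5d had log2 fold changes of -0.77, -0.54 and 0.08, each within 2 SE of 0, and Ebp and Dhcr7 overlapped between groups.

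The regulators did not pass either. Srebf2 stood at 22.5 and 18.9 CPM in OVX and 20.4 and 32.6 CPM in WT (log2 fold change -0.49 ± 0.44, edgeR adjusted p = 0.599). Insig1 had 7 and 5 UMIs in OVX and 41 and 18 in WT, or 8.76 and 3.05 CPM in OVX and 7.03 and 9.33 CPM in WT (log2 fold change -0.72 ± 0.65, edgeR adjusted p = 0.59). Both overlapped between groups. Stard4, which carries sterol between membranes, stood at 7.51 and 14.7 CPM in OVX and 37.6 and 26.4 CPM in WT, without overlap (edgeR adjusted p = 0.123).

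**Figure D1:**
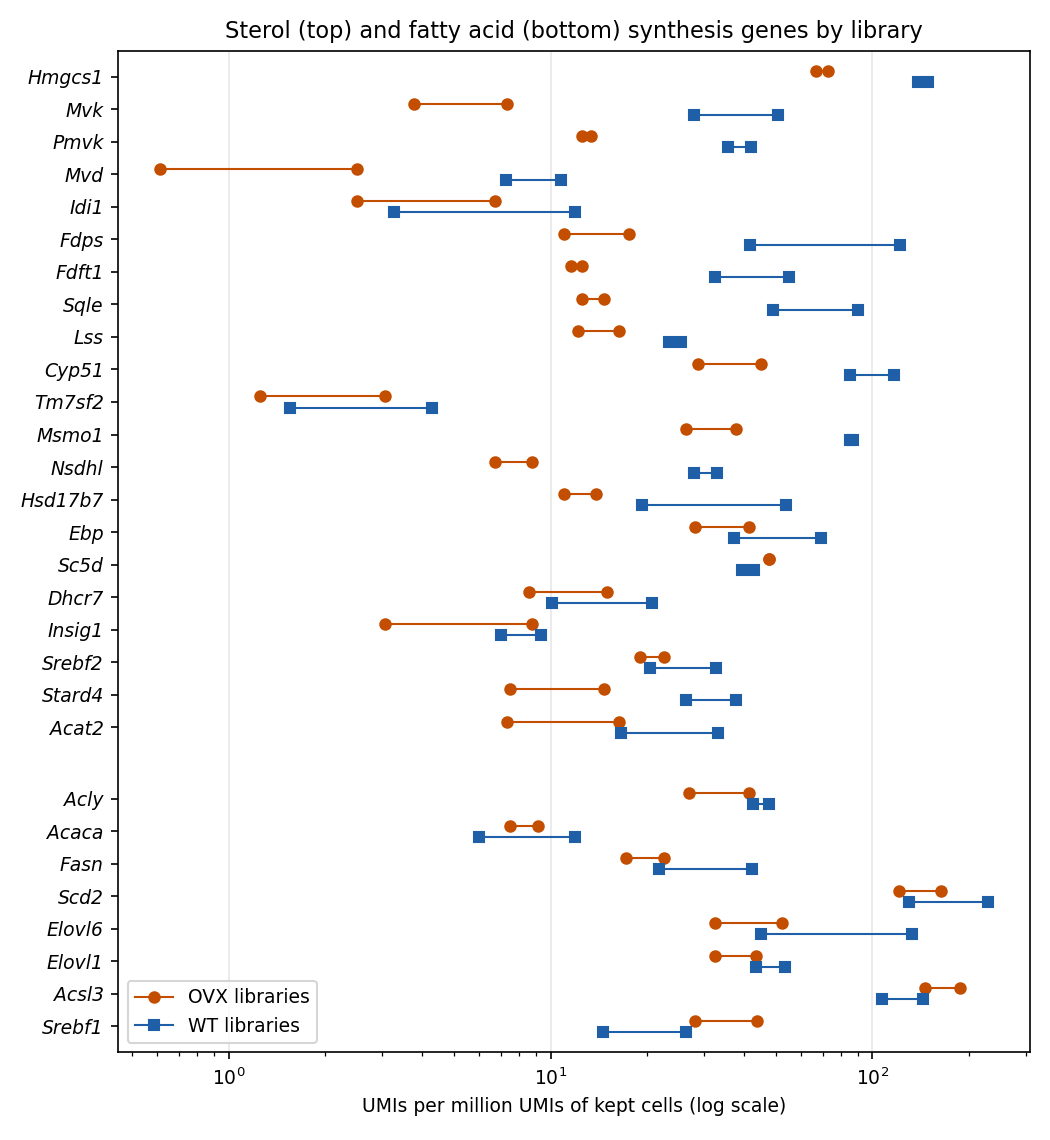
CPM in kept cells (log axis) for the 21 sterol genes (top) and 8 fatty acid genes (bottom); circles are the 2 OVX libraries and squares the 2 WT libraries, joined by a line. OVX circles lie left of the WT squares for 14 sterol genes, among them Mvk at 3.76 and 7.33 CPM in OVX against 50.8 and 28 CPM in WT, while of the 8 fatty acid genes 2 lie lower in both OVX libraries, 2 higher, and 4 overlap.

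In the fatty acid branch 0 of 8 genes passed by edgeR, DESeq2 or limma, and 0 reached an unadjusted p under 0.05 by edgeR, where 5.11% and 20% of all genes did so in either direction. Acly, which supplies acetyl-CoA, stood at 41.3 and 26.9 CPM in OVX and 42.7 and 47.7 CPM in WT. Fasn, fatty acid synthase, averaged 19.8 ± 3.84 CPM in OVX and 32 ± 14.4 CPM in WT, and Acaca, which makes malonyl-CoA, 8.34 ± 1.17 CPM in OVX and 8.96 ± 4.18 CPM in WT. Scd2, a desaturase, stood at 121 and 163 CPM in OVX and 229 and 130 CPM in WT (log2 fold change -0.47 ± 0.45), and its sign turned without WT library 1. The Scd2 values overlapped between groups, with WT library 1 high. Elovl6, an elongase of long chains, stood at 32.5 and 52.5 CPM in OVX and 133 and 45.1 CPM in WT (log2 fold change -1.19 ± 0.58, edgeR adjusted p = 0.304). Elovl1, an elongase of very long chains, stood at 32.5 and 43.4 CPM in OVX and 43.4 and 53.4 CPM in WT; its exons overlap the division gene Cdc20 on the other strand. Acsl3 and Srebf1 lay higher in both OVX libraries. Acsl3, which activates fatty acids for lipid droplets, stood at 146 and 187 CPM in OVX and 144 and 107 CPM in WT (log2 fold change 0.28 ± 0.40). Srebf1 stood at 43.8 and 28.1 CPM in OVX and 14.6 and 26.4 CPM in WT (log2 fold change 0.67 ± 0.47, edgeR adjusted p = 0.479). The branch median was -0.46. Whether the OVX effect differs between the branches was not tested.

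The calls in kept cells rest on few libraries. Without OVX library 1, 0 members passed, and without OVX library 2 only Mvk did; without WT library 1, 8 members passed, and without WT library 2, 13 did, among them Elovl6 and Fasn. Over all genes, 384 passed without OVX library 1, 308 without OVX library 2, 1621 without WT library 1 and 1884 without WT library 2, of 12330 to 12378 tested. The log2 fold change of Mvk ran from -3.61 (without OVX library 2) to -2.30 (without WT library 1), and that of Fdps from -3.24 (without WT library 1) to -1.80 (without WT library 2). Fdps and Nsdhl were also lost without a scaling factor (edgeR adjusted p = 0.0562 and 0.0527), and Fdps by limma (adjusted p = 0.0528). With mitochondrial, ribosomal and Malat1 counts left out 4 members passed, with Mvk, Fdps, Sqle and Nsdhl at -2.84, -2.64, -2.42 and -2.11 on the log2 scale. Of 11214 genes tested in that setting, 336 passed upward and 298 downward. Beside the sterol values, the suprabasal markers summed to 637 and 600 CPM in OVX and 8194 and 9311 CPM in WT. Of these, 10 of 12 tested passed downward. The division markers summed to 504 and 773 CPM in OVX and 4756 and 3491 CPM in WT, and 18 of 24 passed downward. Over all genes 2.52% did so. Without dividing cells the sterol sum was 386 ± 33 CPM in OVX and 973 ± 78.6 CPM in WT, and 5 members passed. Over the 11193 genes tested there, 326 passed upward and 283 downward.

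Within the basal gate, where suprabasal and luminal cells are left out, the sterol branch was lower in OVX as well. It summed to 351 and 305 CPM in OVX and 680 and 736 CPM in WT, an OVX level 0.464 times the WT level. The fatty acid branch summed to 397 and 521 CPM in OVX and 598 and 416 CPM in WT, with overlap. Of 16 sterol genes tested, 1 passed downward and 0 upward, against 1.92% and 1.14% of 8964 genes. At an unadjusted p under 0.05, 6 were lower, against 8.94% of all genes. The gene that passed was Sqle, with 2 and 7 UMIs in OVX and 120 and 42 in WT, or 5.8 and 8.38 CPM in OVX and 37.9 and 52.2 CPM in WT; it fell by 2.59 ± 0.56 (edgeR adjusted p = 0.0436).

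In the basal gate Sqle missed the threshold without OVX library 1 (log2 fold change -2.38) and without OVX library 2 (-3.02), narrowly by DESeq2 (-2.58, adjusted p = 0.0508), and with gates on counts that were not thinned (-1.67, edgeR adjusted p = 0.18). Fdps stood at 8.7 and 8.38 CPM in OVX basal cells and 27.2 and 84.5 CPM in WT basal cells (log2 fold change -2.69 ± 0.71, edgeR adjusted p = 0.0864). Fdft1 stood at 2.9 and 10.8 CPM in OVX and 22.1 and 44.7 CPM in WT, and Nsdhl at 8.7 and 7.19 CPM in OVX and 30 and 22.4 CPM in WT. Libraries did not overlap for 11 of the 16, all lower in OVX, against 24.4% of all genes. The log2 fold change was below 0 for 15 of the 16, against 52.4% of all genes, with a median of -1.18 against -0.04; the exception was Lss, at 0.05 ± 0.68. Mvk, Mvd, Idi1, Tm7sf2 and Insig1 were too low to be tested there: Mvk stood at 5.8 and 5.99 CPM in OVX and 38.2 and 11.2 CPM in WT, and Mvd had 0 UMIs in either OVX library, which allows up to 3 counts, and 17 and 5 in WT. None of the 7 fatty acid genes tested passed by edgeR, DESeq2 or limma, and 0 reached an unadjusted p under 0.05 by edgeR, against 16.4% of all genes in either direction; the median was -0.22. The basal gate still differed in division markers, at 606 and 976 CPM in OVX and 6351 and 4791 CPM in WT, and in residual suprabasal markers, at 461 and 399 CPM in OVX and 2585 and 2880 CPM in WT. In basal cells below the division threshold the sterol sum was 325 ± 35 CPM in OVX and 763 ± 41.4 CPM in WT; the part of the suprabasal residue and of depth was not tested. With mitochondrial, ribosomal and Malat1 counts left out, Sqle fell by 2.54 in the basal gate (edgeR adjusted p = 0.0424).

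**Figure D2:**
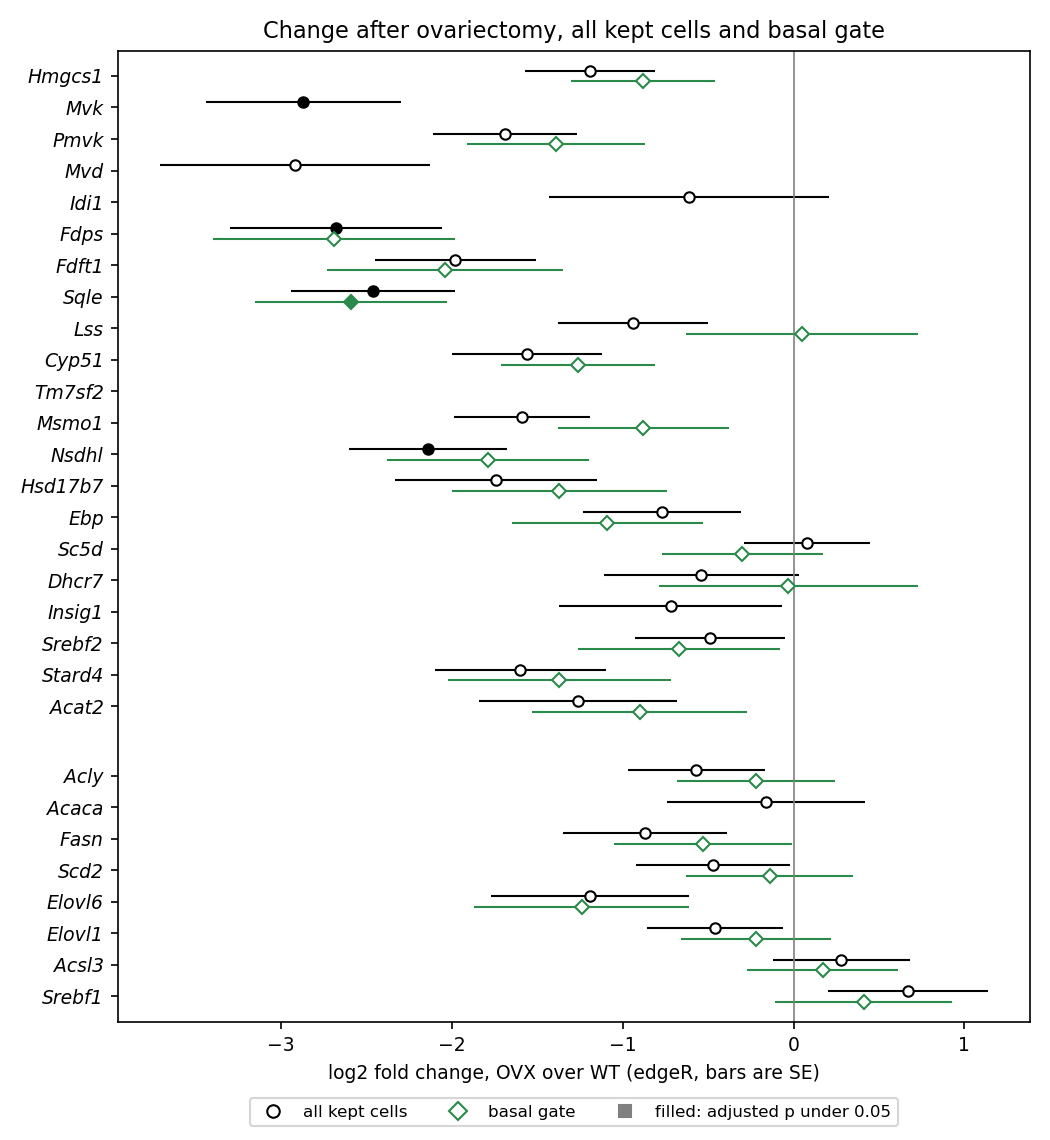
log2 fold change, OVX over WT, for each member in all kept cells (circles) and in the basal gate (diamonds), with SE as bars; filled symbols have an adjusted p under 0.05. Sterol genes sit mostly left of 0 in both, with Sqle filled in both at -2.46 and -2.59, and no fatty acid gene is filled.

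Within the WT epithelium the sterol branch was higher in the suprabasal gate than in the basal gate. It summed to 1272 and 1481 CPM in the suprabasal gate of WT libraries 1 and 2 and 680 and 736 CPM in the basal gate. Of 19 sterol genes tested, 14 rose and 0 fell, and the log2 fold change was above 0 for all 19, against 50.6% of all genes. The fatty acid branch, at 768 and 517 CPM in the suprabasal and 598 and 416 CPM in the basal gate, had 4 genes that rose and 1, Acsl3, that fell.

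For this comparison the library was a block, so that suprabasal and basal cells of 1 library were set against each other. Of 9177 genes tested, 957 rose (10.4%) and 1084 fell (11.8%); without a scaling factor the split was 611 and 1642. The median over the sterol genes was 1.19, against 0.01 over all genes, and 13 sterol genes had both suprabasal values above both basal values, against 8.89% of all genes. With 2 library pairs the fit has 1 residual degree of freedom and leans on a spread shared across genes, so these p-values do not stand for replicate animals. Without the block 0 members and 0 of all genes passed (10 members and 613 genes at an unadjusted p under 0.05), and DESeq2 with the block called 11 of the 27 members tested, against 19 by edgeR.

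Insig1 rose most, with 17 and 12 UMIs in suprabasal and 11 and 4 in basal cells, or 13.5 and 25 CPM in suprabasal and 3.47 and 4.97 CPM in basal cells (log2 fold change 2.2 ± 0.43 SE, edgeR adjusted p = 3.31e-05). Mvd stood at 21.4 and 18.7 CPM in suprabasal and 5.37 and 6.22 CPM in basal cells (log2 fold change 2.03 ± 0.38), and Lss at 48.4 and 47.9 CPM in suprabasal and 15.2 and 7.46 CPM in basal cells (log2 fold change 2.01 ± 0.27). These 3 rose about 4-fold, and neither layer's libraries overlapped the other's. DESeq2 called Lss but not Insig1 or Mvd, while limma called all 3. Fdps stood at 75.3 and 204 CPM in suprabasal and 27.2 and 84.5 CPM in basal cells (log2 fold change 1.53 ± 0.18), higher in the suprabasal cells of each library although the libraries differ. Hsd17b7 stood at 93.6 and 33.3 CPM in suprabasal and 35.7 and 14.9 CPM in basal cells (1.5 ± 0.21 on the log2 scale). Sqle stood at 82.5 and 162 CPM in suprabasal and 37.9 and 52.2 CPM in basal cells (1.46 ± 0.18 on the log2 scale).

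Mvk, at 79.3 and 60.4 CPM in suprabasal and 38.2 and 11.2 CPM in basal cells, rose by 1.42 ± 0.22, and Fdft1, at 60.3 and 83.3 CPM in suprabasal and 22.1 and 44.7 CPM in basal cells, by 1.39 ± 0.22. Dhcr7, which makes cholesterol in the last reduction, stood at 18.2 and 22.9 CPM in suprabasal and 6.95 and 16.2 CPM in basal cells and rose by 1.22 ± 0.36, a call lost by DESeq2 and by limma. The early and middle genes moved the same way. Cyp51 stood at 188 and 131 CPM in suprabasal and 90.7 and 64.6 CPM in basal cells, and Msmo1 at 122 and 148 CPM in suprabasal and 69.5 and 47.2 CPM in basal cells. Pmvk stood at 54.7 and 54.2 CPM in suprabasal and 29.1 and 32.3 CPM in basal cells, and Hmgcs1 at 181 and 206 CPM in suprabasal and 128 and 117 CPM in basal cells. The log2 fold changes of Cyp51, Msmo1, Pmvk and Hmgcs1 were 1.19, 1.18, 1.01 and 0.74, all past the threshold by edgeR. The Pmvk call was lost by DESeq2. Stard4 passed at 0.71 ± 0.24, but was lost by DESeq2, by limma, without the filter on low counts and without a scaling factor, and stood at 53.9 and 27.1 CPM in suprabasal and 31.6 and 31.1 CPM in basal cells, so that only WT library 1 showed the rise. Srebf2 (0.63 ± 0.28), Acat2 (0.64 ± 0.30), Nsdhl (0.43 ± 0.26), Sc5d (0.38 ± 0.23) and Ebp (0.27 ± 0.22) did not pass. Mvk, Fdps and Sqle were thus the 3 sterol genes called both lower in OVX kept cells and higher in suprabasal cells; the comparisons share the WT libraries and are not independent.

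**Figure D3:**
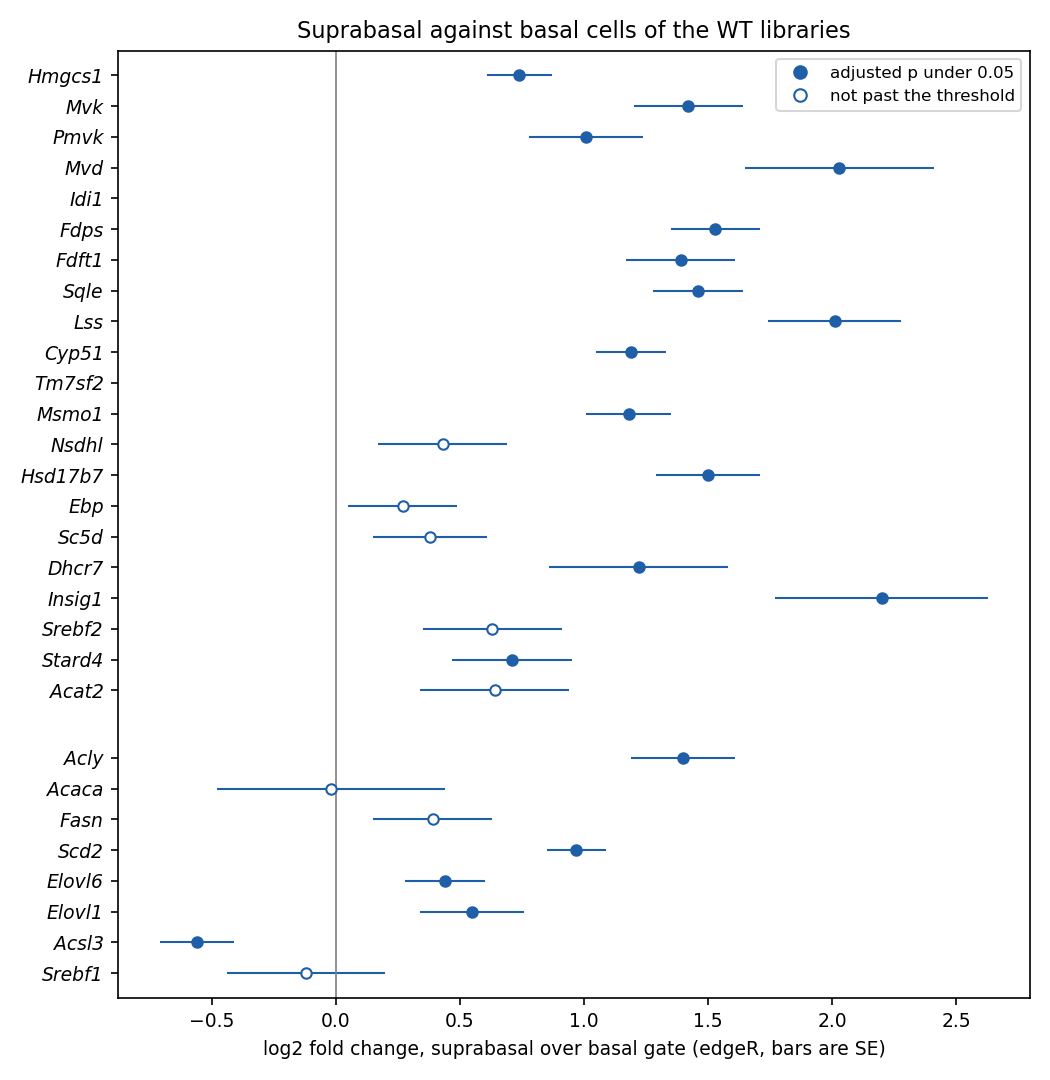
log2 fold change, suprabasal over basal gate of the WT libraries, with SE as bars; filled circles have an adjusted p under 0.05 by edgeR with the library as block. Every sterol gene tested lies right of 0, led by Insig1 at 2.2, and Acsl3 at -0.56 is the 1 filled circle left of 0.

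In the fatty acid branch Acly, which also feeds the sterol route, stood at 80.1 and 72.9 CPM in suprabasal and 31.9 and 34.8 CPM in basal cells, a rise of 1.40 ± 0.21 on the log2 scale (edgeR adjusted p = 6.01e-08). Scd2 stood at 333 and 167 CPM in suprabasal and 186 and 98.2 CPM in basal cells and rose by 0.97 ± 0.12. Elovl1, at 51.5 and 68.7 CPM in suprabasal and 38.9 and 52.2 CPM in basal cells, rose by 0.55 ± 0.21 with an edgeR adjusted p of 0.0495, and Elovl6, at 141 and 66.7 CPM in suprabasal and 124 and 36 CPM in basal cells, by 0.44 ± 0.16. For each of these 4 genes the suprabasal value was higher within each library. Elovl1 and Elovl6 were lost by DESeq2, without the filter on low counts and without a scaling factor, and Elovl1 also by limma and with gates not thinned. Acsl3 stood at 97.5 and 72.9 CPM in suprabasal and 155 and 129 CPM in basal cells and fell by 0.56 ± 0.15 (edgeR adjusted p = 0.00289), a call lost by DESeq2. Fasn, Acaca and Srebf1 did not pass, with log2 fold changes of 0.39 ± 0.24, -0.02 ± 0.46 and -0.12 ± 0.32. Median depth was 1736.5 and 858 UMIs in suprabasal and 1563 and 787.5 UMIs in basal cells. The division markers, at 1308 and 1312 CPM in suprabasal and 6351 and 4791 CPM in basal cells, fell for 24 of 24, where 11.8% of all genes fell.

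The OVX libraries have too few suprabasal cells to ask the same there: that gate held 2 and 1 cells, with 0 and 1 sterol UMIs. They could be asked about luminal cells, 118 in OVX library 1 and 159 in OVX library 2. Sterol genes summed to 559 and 423 CPM in the luminal and 351 and 305 CPM in the basal gate of OVX, and fatty acid genes to 506 and 647 CPM in the luminal and 397 and 521 CPM in the basal gate. Only 5 genes of each branch had counts enough for a test, and 0 passed by edgeR, DESeq2 or limma, against 6.81% higher and 4.85% lower among 4803 genes. Cyp51 stood at 66.6 and 76.9 CPM in luminal and 37.7 and 29.9 CPM in basal cells, from 5 and 12 luminal UMIs (log2 fold change 1.15 ± 0.46, edgeR adjusted p = 0.0927). Ebp (1.23 ± 0.51) and Acly (1.07 ± 0.49) also reached an unadjusted p under 0.05, as did 11.9% of all genes in that direction, and neither passed after adjustment.

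**Figure D4:**
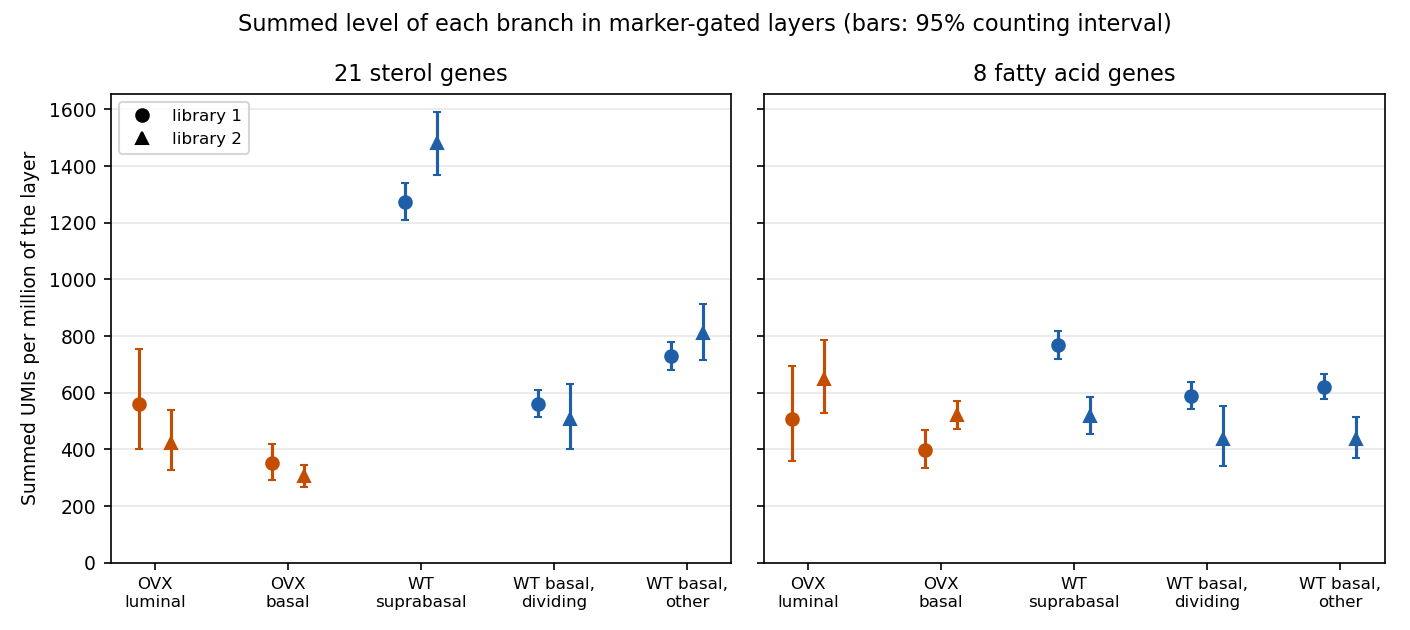
Summed CPM of the sterol (left) and fatty acid (right) genes in 5 marker-gated sets of cells (OVX luminal, OVX basal, WT suprabasal, WT basal dividing, WT basal other); circles are library 1 and triangles library 2 of the group named below the axis, with bars for the 95% exact Poisson counting interval. Of these 5 sets, WT suprabasal cells have the highest sterol sums, at 1272 and 1481 CPM, and OVX basal cells the lowest, at 351 and 305 CPM, while fatty acid sums overlap.

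Division was examined within the WT basal gate, with 425 and 148 dividing cells set against 716 and 385 cells that held 0 UMIs of the division markers. Sterol genes summed to 559 and 507 CPM in dividing and 729 and 810 CPM in the other basal cells, and fatty acid genes to 589 and 437 CPM in dividing and 621 and 437 CPM in the other basal cells. Of 14 sterol genes tested, 1 fell and 0 rose, and of 7 fatty acid genes 1 fell and 0 rose, where 5.01% of 7802 genes fell and 6.87% rose. Hmgcs1 stood at 103 and 69.6 CPM in dividing and 142 and 120 CPM in other basal cells and fell by 0.56 ± 0.19 (edgeR adjusted p = 0.0395). Elovl6 stood at 91.8 and 31.7 CPM in dividing and 143 and 42.2 CPM in other basal cells and fell by 0.67 ± 0.21 (edgeR adjusted p = 0.0218). Both calls were lost by DESeq2, by limma and without the library block. The median over sterol genes was -0.50, against -0.06 over all genes. Suprabasal markers were lower in the dividing cells too, at 1966 and 2355 CPM against 3245 and 3316 CPM in the other basal cells, and their part in these values was not tested.

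Other lipid genes came from 4 further lists. Sterol uptake and traffic had a median log2 fold change of 0.79 over 13 tested genes in kept cells, OVX over WT. Of these 1 rose, against 2.58% of all genes. Abcg1, which exports cholesterol, had 14 and 39 UMIs in OVX and 6 and 0 in WT, or 17.5 and 23.8 CPM in OVX and 1.03 and 0 CPM in WT (log2 fold change 4.66 ± 0.78, edgeR adjusted p = 0.0171). It rose in the basal gate as well, at 20.3 and 27.5 CPM in OVX and 1.26 and 0 CPM in WT (edgeR adjusted p = 0.026). Abca1, a related exporter, stood at 26.3 and 32.4 CPM in OVX and 7.89 and 3.11 CPM in WT, without overlap, and missed the threshold (edgeR adjusted p = 0.0648). In kept cells Abcg1 passed without each library in turn, with a log2 fold change of 4.11 to 4.92, and 7.90 without WT library 1, where WT was left with 0 UMIs. In the basal gate it passed without OVX library 1, WT library 1 or WT library 2 and was too low to be tested without OVX library 2. Macrophages also express both exporters, and cells with 3 or more myeloid UMIs had been set aside before the basal gate. In OVX libraries 1 and 2 the myeloid and fibroblast cells set aside held 2 and 1 UMIs of Abcg1 and 2 and 3 of Abca1. The basal gate of OVX held 7 and 23 UMIs of Abcg1 and 13 and 29 of Abca1. The part of macrophages in these values was not tested.

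Of 18 other fatty acid and glyceride genes tested in kept cells, 1 fell, where 2.52% of all genes did. Fads3, a desaturase-like gene, had 0 and 3 UMIs in OVX and 142 and 21 in WT (edgeR adjusted p = 0.0449); from pooled counts WT was 17.1 times OVX, with a counting interval of 5.73 to 83.6. In the basal gate it had 0 and 1 UMIs in OVX and 96 and 15 in WT (edgeR adjusted p = 0.0324). It was called in kept cells without each library in turn, but not in the basal gate without WT library 1 or OVX library 2. None of 10 barrier lipid genes tested in kept cells passed by edgeR; 3 were lower at an unadjusted p under 0.05, where 10% of all genes were.

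In fatty acid oxidation and storage 1 of 14 tested genes fell and 1 rose, against 2.52% and 2.58% of all genes. Fabp5, the epidermal fatty acid carrier, stood at 119 and 139 CPM in OVX and 1550 and 2090 CPM in WT and fell by 3.95 ± 0.47 (edgeR adjusted p = 0.00569), and it passed without each library in turn. In the basal gate it fell by 2.02 ± 0.45, at 168 and 141 CPM in OVX and 527 and 691 CPM in WT (edgeR adjusted p = 0.047), and was lost there without OVX library 1 or 2. That basal call was also lost with gates not thinned, with the library number as a block and without a scaling factor (edgeR adjusted p = 0.102, 0.233 and 0.0556). Ppara, a receptor that switches on fatty acid oxidation, had 6 and 12 UMIs in OVX and 5 and 1 in WT and rose by 3.09 ± 0.71 (edgeR adjusted p = 0.0484). That call was lost without OVX library 1, WT library 1 or WT library 2, by DESeq2 (adjusted p = 0.0901), by limma (adjusted p = 0.0545) and with the library number as a block (adjusted p = 0.146), and without OVX library 2 the gene was too low to be tested.

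**Figure D5:**
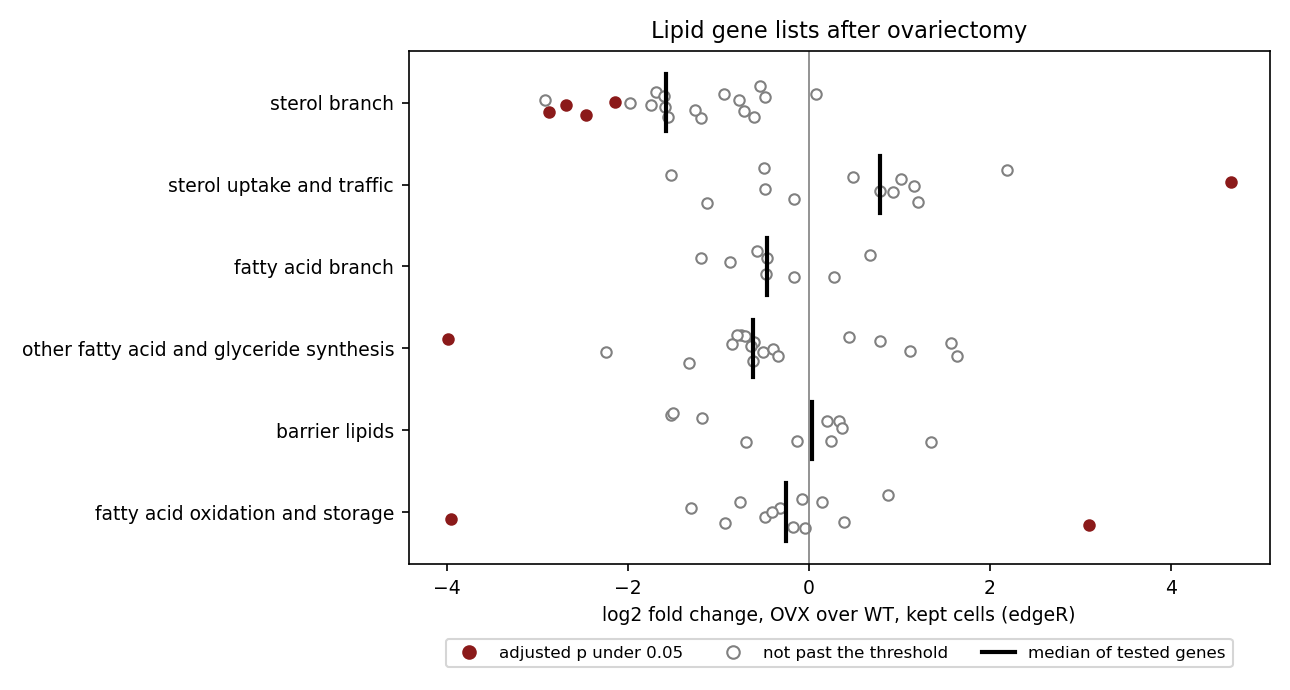
log2 fold change, OVX over WT in kept cells, of every tested gene (circles, filled at an adjusted p under 0.05) in the sterol branch, the fatty acid branch and 4 other lipid lists, with the list median as a bar. The sterol branch has the lowest median, -1.57, and sterol uptake and traffic the highest, 0.79.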

How the data were processed

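Each library has 1 deposited matrix of UMI counts, genes by barcodes, as whole numbers that the authors did not normalize. The submitters' processing notes name the build mm10 and Seurat 2; the aligner, its annotation, strand use and the rule for choosing barcodes were not given in the sources used here. Cells were kept with 200 or more genes and no more than 20% mitochondrial UMIs. Doublets were neither called nor removed.

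Members and gene lists were chosen with earlier results of these data known, and the thresholds of the layer gates were set after the files were seen. Cells were thinned to 300 UMIs, which left out 239 cells of OVX library 1 and 2 of OVX library 2. Cells with at least 3 myeloid or 3 fibroblast UMIs were set aside. The suprabasal gate needed at least 4 suprabasal UMIs, the luminal gate at least 2 luminal UMIs without that, and the basal gate at least 2 basal, at most 1 suprabasal and 0 luminal UMIs. Dividing cells had at least 3 division-marker UMIs.

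UMIs were summed per library and gate, since cells are not replicates, and tested with edgeR 4.0.16 (R 4.3.3; TMM, filterByExpr, quasi-likelihood F-test, Benjamini-Hochberg over all genes, threshold 0.05). Layers within a group were compared with the library as a block, because they come from the same library. CPM is per 1000000 UMIs of the cells summed. Each SE is the absolute log2 fold change divided by the square root of F. Counting intervals (95%, exact) cover counting error only. DESeq2 1.42.0, limma 3.58.1 (limma-trend), other scalings, filters, gates and left-out libraries were alternatives.

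Values per library are given for members past the threshold in any of the 5 comparisons, the 3 members with the highest mean CPM in each branch, and Srebf1, Srebf2 and Insig1; other lipid genes were named if past the threshold in kept cells or the basal gate. Abca1 was named after its values were seen. Another list, of further sterol genes, is not reported here. Shared sequence and overlapping exons were taken from GENCODE vM21, and promoters and positions from RefSeq on GRCm38.p6.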

Additional observations from a re-analysis of the deposited data

How the results depend on the processing

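Whether the library numbers pair the groups is not given by the labels. The differences OVX1 minus OVX2 and WT1 minus WT2 correlated at -0.568 over 11495 genes. Median UMIs per kept cell also ran opposite ways, at 435 and 738 in OVX libraries 1 and 2 and 1597 and 799 in WT libraries 1 and 2. The part of depth in this correlation was not tested, so it does not settle the pairing. With the replicate number as a block, 3 members passed in kept cells (main 4) and 2 in the basal gate (main 1). Over all genes in that setting, 268 rose and 249 fell in kept cells, and 91 rose and 168 fell in the basal gate. With crossed numbers, an alternative chosen after seeing the data, 16 and 12 members and 3489 and 2119 genes passed (main 587 and 274 genes). With 1 library left out in turn, 0 to 13 members and 308 to 1884 genes passed in kept cells, and 0 to 6 members and 106 to 1083 genes in the basal gate; for layers within a group this leaves no residual degrees of freedom and was not fitted. Without the filter on low counts 11 members and 1356 genes passed in kept cells, 4 members and 672 genes in the basal gate, and 0 members in dividing cells. Over all genes 498 rose and 249 fell in dividing cells in that setting. Without a scaling factor, which moved the median of all genes to 0.11 in kept cells and to -0.14 in the suprabasal comparison, 2 members passed in kept cells and 1 in dividing cells. Over all genes 360 rose and 254 fell in kept cells then, and 627 rose and 335 fell in dividing cells. DESeq2 called 11 members and 593 genes in the suprabasal comparison (main 19 and 2041), 208 genes in the luminal one (main 560), and 0 members and 312 genes in dividing cells (main 2 and 927), where limma called 0 members and 516 genes. Without the library block 0 members and 0 genes passed in the suprabasal and dividing comparisons and 59 genes in the luminal one.

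With gates on counts that were not thinned, 0 members passed in the basal gate and 0 in dividing cells. Over all genes 89 rose and 170 fell in the basal gate then, and 481 rose and 193 fell in dividing cells. The shares of cells were 56% basal, 4.07% luminal and 0.814% dividing in OVX, and 17.6% suprabasal and 0.0252% luminal in WT. 7 of 564 single-gene values changed sign and none of these passed: Scd2 in the basal gate with gates not thinned (0.06), Acsl3 there without the filter (-0.02), and 5 with a library left out. With 1 library left out the log2 fold change ran from -0.88 to 0.05 (without WT library 1) for Scd2 in kept cells, and in the basal gate from -0.59 to 0.43 for Scd2 (above 0 without WT library 1 and without OVX library 1), from -0.22 (without OVX library 2) to 0.46 for Acsl3, and from -0.01 (without WT library 1) to 0.83 for Srebf1. A further 460 kept direction and call, 79 lost the call and 18 gained it. The cause of these changes was not tested. Single sterol genes had 1 to 58 UMIs in OVX library 1 and 1 to 109 in OVX library 2, which limits their precision.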
